A study of Homo sapiens with 8 samples.

Results

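The 9 genes described here encode histones that can be made and deposited outside the burst of histone synthesis in S phase: H2AZ1, H2AZ2, H2AX, MACROH2A1, MACROH2A2, H3-3A, H3-3B, CENPA and H1-10. They were listed by name as histone variant genes whose transcripts normally carry a poly(A) tail, and all 9 were found among the 60725 genes of the count table, of which 33854 had at least 1 read. The libraries were made from HAP1, a near-haploid human cell line derived from a chronic myeloid leukaemia. Polyadenylated RNA was collected 144 h after lentiviral transduction of a guide RNA and read as single-end reads of 65 bases.

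All cells belonged to a single clone, named cSC9, that stably produced dCas9-KRAB, a Cas9 without nuclease activity joined to a repressor domain that silences the promoter it is guided to, from an EF1a promoter with a chromatin opening element. All groups also carried a guide RNA vector and had been selected with puromycin. The control group (3 libraries) had a guide RNA against ADAM22, a gene described as not expressed in HAP1. The NELFE knockdown (3 libraries) and the NELFB knockdown (2 libraries) had guide RNAs against these subunits of NELF, the negative elongation factor that holds RNA polymerase II in a paused state shortly after initiation. The replicates of both knockdowns are described as independent biological replicates. The controls carry the same form of replicate label, which is not spelled out, and because every library came from the same clone, p-values measure the spread between these libraries. Between 22037423 and 24444185 reads were counted per library.

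Most histone genes are transcribed in S phase only, and their mRNAs end in a stem-loop in place of a poly(A) tail. Histone variants follow other rules. Their genes are spread over the genome, most contain introns, and most of their mRNAs are polyadenylated, so that the proteins can be supplied through the whole cell cycle. H2A.Z, made by H2AZ1 and H2AZ2, sits in the nucleosomes that flank active start sites. H2AX is phosphorylated around DNA breaks, and its mRNA can end either in a stem-loop or in a poly(A) tail. Polyadenylated RNA, as read here, covers only the form with a tail. The macroH2A proteins carry a large additional domain and are typical of silent chromatin. H3.3, made by H3-3A and H3-3B, replaces H3 at transcribed genes and regulatory sites, CENP-A marks the centromere, and H1-10 encodes a linker histone.

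Several of these genes resemble each other, which decides where a read can be counted. H3-3A and H3-3B encode the same protein (136 of 136 residues identical in a translation of the canonical transcripts), but 78.4% of their 408 coding bases are identical. The first 90 coding bases of each are shown because they let a reader see this difference, with capitals at the 21 positions where the bases differ. On GRCh38, H3-3A is read from the plus strand at chr1:226064352-226064441 and H3-3B from the minus strand at chr17:75779085-75779174, each within a single exon.
H3-3A: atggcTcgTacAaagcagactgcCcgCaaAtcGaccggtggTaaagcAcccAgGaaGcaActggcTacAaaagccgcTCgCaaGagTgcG
H3-3B: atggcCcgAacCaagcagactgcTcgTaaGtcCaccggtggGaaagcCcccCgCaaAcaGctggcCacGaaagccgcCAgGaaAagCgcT
H2AZ1 and H2AZ2 differ in 3 of 128 residues and share 80.5% of their 384 coding bases. Their first 90 coding bases differ at 19 positions, again in capitals. These bases are spread over 3 exons each, on the minus strand of chromosome 4 between 99949378 and 99950170 and of chromosome 7 between 44841004 and 44847971.
H2AZ1: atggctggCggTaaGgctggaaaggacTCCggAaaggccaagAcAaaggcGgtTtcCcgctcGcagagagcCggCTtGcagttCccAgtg
H2AZ2: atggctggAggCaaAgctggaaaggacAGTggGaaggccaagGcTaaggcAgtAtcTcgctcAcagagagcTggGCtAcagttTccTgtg
MACROH2A1 and MACROH2A2 are further apart, with 67.7% of the aligned residues identical.

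The pairs can therefore be told apart by reads of 65 bases, but processed pseudogenes, which are copies of spliced mRNAs elsewhere in the genome, cannot always be. Each canonical transcript was searched in all windows of 65 bases against GRCh38. A window is said to occur once if it was found nowhere else in the genome and was not repeated within its gene. Windows across splice junctions, which the genome does not hold in a single piece, are included. In H2AX, MACROH2A1, MACROH2A2, CENPA and H1-10, all windows occurred once. The share was 95.4% for H2AZ1, 94.1% for H2AZ2 and 92.6% for H3-3B. In H3-3A only 7.7% of the windows (77 of 1006) occurred once, and 45.6% of them were also present in the pseudogene H3P6 on chromosome 2, 32.2% in H3P16 on chromosome 4 and 22.0% in H3P47 on the X chromosome. The counts were generated by STAR during alignment, a mode that by its standard behaviour keeps only reads with a single best position, so most reads from the canonical H3-3A mRNA could not be counted. Other annotated H3-3A exons hold more windows that occur once (78.3% over the union of its exons), and reads of minor isoforms cannot be told apart from reads of the canonical one. Since the counting ignored strand, reads in windows that overlap an exon of another gene could also have been lost, where the annotation used for counting held that exon. The overlaps were taken from GENCODE v44, and whether Gencode v24 held the same exons was not tested. In v44 they concerned 32.6% of the windows of H1-10, overlapped by H1-10-AS1, 13.5% for H2AZ1, overlapped by H2AZ1-DT, and 12.9% for MACROH2A1, overlapped by PITX1-AS1. Windows that occurred once and overlapped no such exon are called countable.

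**Figure D1:**
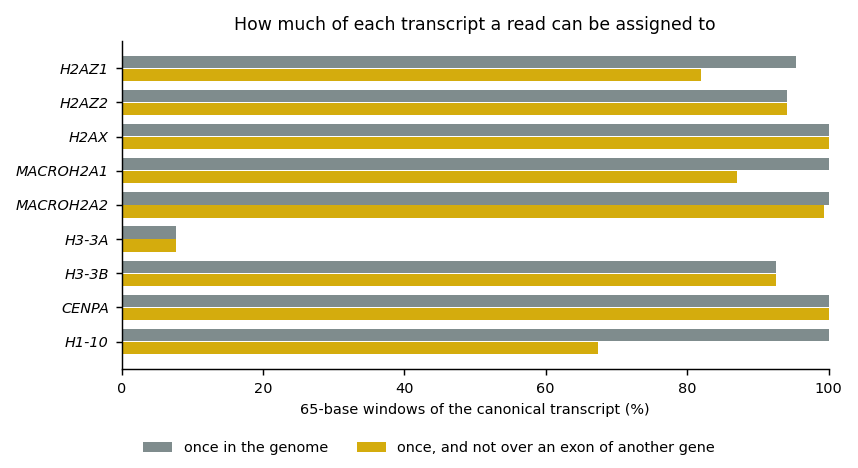
Share of the 65-base windows of each canonical transcript (horizontal axis, percent) that were found nowhere else in GRCh38 (grey) and that in addition overlap no exon of another gene (yellow). H3-3A stands apart at 7.7%, and H1-10 drops to 67.4% once the overlap with its antisense gene is taken into account.

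The targets of the guide RNAs checked the labels. NELFE was at 50.6, 49.5 and 47.8 CPM (counts scaled to a common library size, normalised by the TMM method) in the controls and at 2.41, 2.38 and 2.98 in the NELFE knockdown, which was 19.1-fold lower (log2 fold change -4.26 ± 0.11 SE, adjusted p = 2.2e-08). NELFB was at 74.5, 72.8 and 78.7 CPM in the controls and at 3.08 and 2.76 in the NELFB knockdown, 25.7-fold lower (log2 fold change -4.69 ± 0.11, adjusted p = 4.0e-09). BCR and ABL1 are joined in the fusion gene BCR-ABL1, the mark of the leukaemia from which HAP1 derives. Their control means were 21.1 CPM for BCR and 20.6 CPM for ABL1. These are counts per gene, and the fusion transcript itself was not examined. Of 8 blood cell markers 3 had no read in any library, and the sum of the 8 was between 0.201 and 2.83 CPM, with CD34 the most abundant. CD34, a marker of blood progenitors, was higher in the knockdowns, with means of 0.099 CPM in the controls and 1.18 CPM in the knockdowns (adjusted p = 0.014), while PTPRC, the general leukocyte marker, was at 0.029 and 0.017 CPM. ABL1 also rose in the knockdowns, to 42.5 CPM (adjusted p = 0.0019). The part of these genes in the results below was not tested. The 5 fibroblast markers summed to between 15.5 and 29.7 CPM, nearly all from COL1A1, and LUM and DCN had no read.

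In control cells the variants covered a wide range of levels. Per length of the union of their annotated exons, H2AZ1 had the highest level with 1160 ± 203 TPM (reads divided by length and scaled to a common total; mean ± SD, n = 3), rank 56 among the 15729 protein-coding genes with reads. H3-3B followed with 257 ± 12.8 TPM, then H2AX with 234 ± 5.7 TPM and H1-10 with 198 ± 46.5 TPM, the latter pair with overlapping ranges. H2AZ2 was at 130 ± 12.2 TPM, CENPA at 83.6 ± 5.31 TPM and MACROH2A1 at 63.6 ± 4.82 TPM. The lowest were H3-3A with 11.97 ± 3.27 TPM and MACROH2A2 with 0.535 ± 0.032 TPM. All neighbours in this order other than H2AX and H1-10 had ranges that did not overlap. The order depended on the length used for a gene, since rarely used exons lengthen some unions (17013 bases for MACROH2A1 against 1917 in its canonical transcript). With canonical lengths, MACROH2A1 rose to the third place with 565 TPM, with a range overlapping that of H3-3B at 583 TPM. H2AZ1 remained the first, at 3041 TPM, and MACROH2A2 the last, at 4.15 TPM. With all reads of a gene divided by the countable windows of its canonical transcript, H3-3A was at 595 TPM. It then took the fourth place in the controls, with a range overlapping that of H3-3B. Reads from other exons of H3-3A raise this value by an amount that was not measured. Neither this value nor the low value per exon length is therefore a measure of its mRNA level. Both alternatives kept the total from union exon lengths. Their values thus serve to order the listed variants and cannot be set beside the values per union length.

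The first question was which variants changed when NELF was depleted. With all 5 knockdown libraries set against the 3 controls, 4 of the 9 genes were called at an adjusted p under 0.05 by edgeR, against 26.0% of the 16367 genes tested. H3-3B rose, as did 13.3% of all genes tested, and H2AX, H2AZ1 and CENPA fell, as did 12.7% of all genes. The median log2 fold change of the 9 genes was -0.01, beside 0.00 for all genes tested. In bulk RNA, a change in the share of cells in a phase of the cell cycle and a change of RNA per cell cannot be told apart. In the NELFE knockdown alone 2 of 9 were called (H3-3B higher, H2AX lower), against 15.0% of 16852 genes (7.92% higher and 7.04% lower), and in the NELFB knockdown alone 3 of 9 (H3-3B higher, H2AX and H2AZ1 lower), against 19.5% (10.6% higher and 8.88% lower). Both knockdowns were compared with the same controls. Control replicate 1 and NELFE replicate 3 stood apart from their groups in H2AZ1. In the sum of S-phase genes NELFE replicate 3 stood apart as well, while control replicate 1 was only the lowest control. With either of these libraries left out, the combined comparison called the same 4 genes. Without control replicate 2 or 3, NELFE replicate 1 or either NELFB library it called 2, H2AX and H3-3B. The levels of the knockdown and control libraries did not overlap for H3-3B, which was higher in all 5, as for 14.8% of the genes tested, nor for H2AX and CENPA, which were lower in all 5, as for 14.0%.

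**Figure D2:**
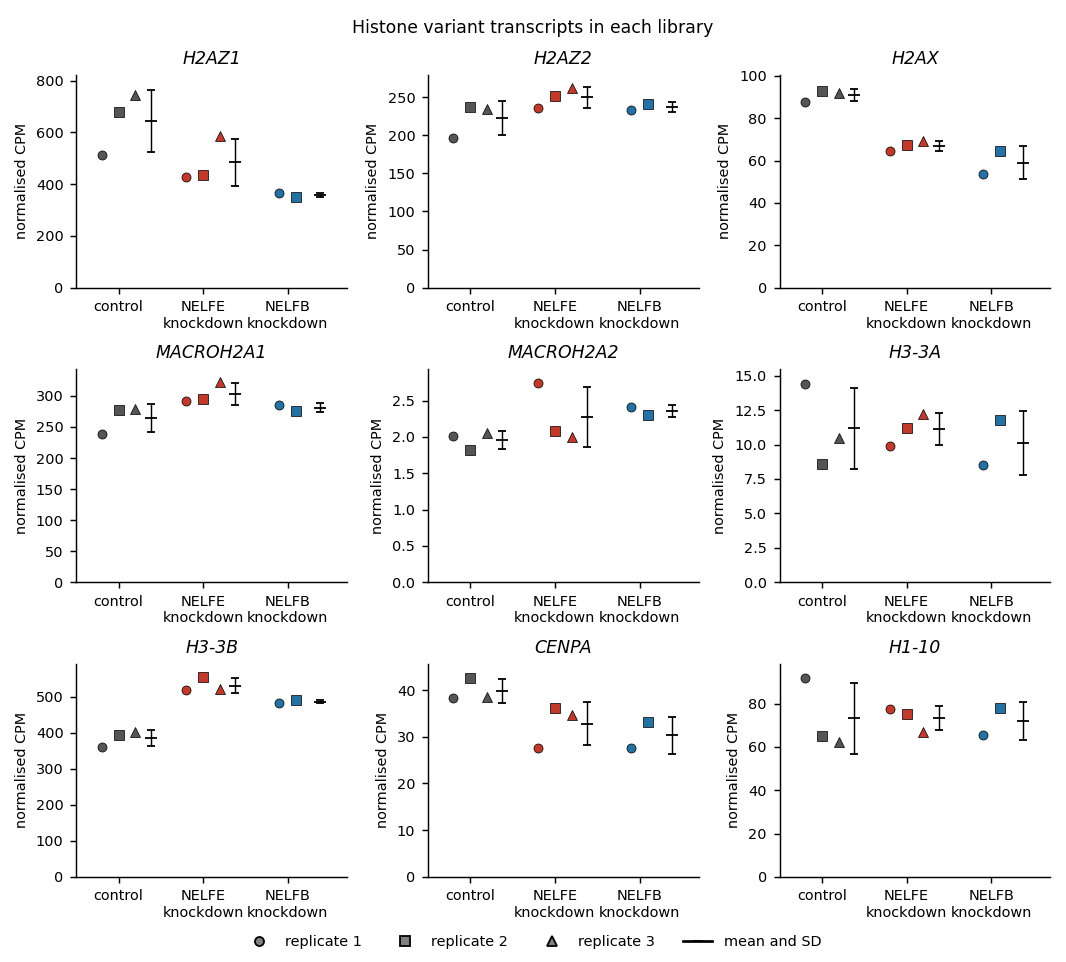
TMM-normalised CPM (vertical axes, from 0) of the 9 genes in each library by group, with symbols for the replicate number and the mean and SD of each group beside the points. H2AX and CENPA lie lower and H3-3B higher in all 5 knockdown libraries than in any control, while the pooled knockdown libraries overlap the controls for the 6 other genes.

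H2AX (ENSG00000188486, minus strand of chromosome 11, chr11:119093874-119095465) consists of a single exon and encodes the H2A form whose phosphorylated tail recruits repair factors. Its level was 87.6, 92.8 and 92.1 CPM in the controls. The NELFE knockdown libraries held 64.4, 67.2 and 69.1 CPM, and the NELFB knockdown libraries held 53.5 and 64.5 CPM. Every knockdown library was below every control, and the libraries of a group lay close together apart from the NELFB pair. H2AX was 1.43-fold lower in the combined comparison (log2 fold change -0.51 ± 0.08, adjusted p = 0.0016). It was 1.36-fold lower in the NELFE knockdown (-0.44 ± 0.09, adjusted p = 0.0087) and 1.54-fold lower in the NELFB knockdown (-0.62 ± 0.10, adjusted p = 0.0024). Of the 14 alternative analyses of the combined comparison, all 14 kept the call.

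Of 8 genes that signal from or modify H2AX, 3 fell and 1 rose in the combined comparison, with a list median of -0.16 on the log2 scale. MDC1, the adaptor that binds phosphorylated H2AX, fell from a mean of 251 to 183 CPM (log2 fold change -0.46 ± 0.08, adjusted p = 0.0020). PRKDC, a kinase that phosphorylates H2AX, fell as well (-0.33 ± 0.07, adjusted p = 0.0047), and so did RNF168 (-0.29 ± 0.07, adjusted p = 0.0086), a ubiquitin ligase that acts downstream of MDC1. TP53BP1, which is recruited by the products of this ligase, rose from 110 to 134 CPM (0.28 ± 0.06, adjusted p = 0.0059). The kinases ATM and ATR, the ligase RNF8 and BAZ1B, a tyrosine kinase of H2AX, were not called, with adjusted p-values between 0.10 and 0.34. These 4 calls in 8 genes stand beside 26.0% of all genes tested.

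H3-3B (ENSG00000132475, minus strand of chromosome 17, chr17:75776434-75785893) was the only one of the 9 genes that rose. Its level was 359, 395 and 403 CPM in the controls. It was 518, 553 and 521 CPM in the NELFE knockdown and 483 and 490 CPM in the NELFB knockdown. All knockdown libraries exceeded all controls, and the NELFB libraries lay below the NELFE libraries. The combined change was 1.33-fold (log2 fold change 0.41 ± 0.07, adjusted p = 0.0020), with 1.37-fold in the NELFE knockdown (0.46 ± 0.07, adjusted p = 0.0039) and 1.26-fold in the NELFB knockdown (0.34 ± 0.08, adjusted p = 0.017). All 14 alternative analyses kept the combined call. In the NELFB comparison the call was lost without either library of that group, with adjusted p-values of 0.136 without replicate 1 and 0.115 without replicate 2, at log2 fold changes of 0.34 and 0.32.

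H3-3A (ENSG00000163041, plus strand of chromosome 1, chr1:226061851-226072019), which encodes the same protein, had few countable reads, between 194 and 359 per library. Its level was 14.4, 8.61 and 10.5 CPM in the controls, 9.90, 11.2 and 12.2 CPM in the NELFE knockdown and 8.48 and 11.8 CPM in the NELFB knockdown. The groups overlapped widely, and control replicate 1 held the highest value of all libraries. The log2 fold change was -0.06 ± 0.17 in the combined comparison (adjusted p = 0.82), and leaving out control replicate 1 turned it to 0.16. A change of the canonical mRNA was hardly measurable with so few windows to count in.

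The H3.3 chaperones comprise HIRA, UBN1, UBN2, CABIN1 and the ASF1 proteins on the path that follows transcription, and DAXX and ATRX at repeats and telomeres. Of 8 genes, only ASF1B was called in the combined comparison, which fell (log2 fold change -0.48 ± 0.14, adjusted p = 0.022), a share near the 12.7% of all genes that fell. UBN1 (0.15 ± 0.07, adjusted p = 0.13), ATRX (0.17 ± 0.09, adjusted p = 0.21) and UBN2 (0.17 ± 0.11, adjusted p = 0.27) had positive values that were not called, although UBN2 rose in the NELFB knockdown alone (0.34, adjusted p = 0.037). ASF1B, unlike its sister gene ASF1A (-0.07 ± 0.09, adjusted p = 0.59), is known as the proliferation-linked form. The list median was -0.01.

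H2AZ1 (ENSG00000164032, minus strand of chromosome 4, chr4:99948086-99950355) was the most abundant of the 9. Its level was 512, 678 and 742 CPM in the controls, 427, 437 and 588 CPM in the NELFE knockdown and 364 and 352 CPM in the NELFB knockdown. The groups overlapped, because control replicate 1 lay below NELFE replicate 3, while both NELFB libraries were below all others. H2AZ1 was 1.49-fold lower in the combined comparison (log2 fold change -0.57 ± 0.17, adjusted p = 0.028). It was 1.80-fold lower in the NELFB knockdown (-0.85 ± 0.17, adjusted p = 0.0084), whereas 1.33-fold lower in the NELFE knockdown was not called (-0.42 ± 0.15, adjusted p = 0.089). The difference between the knockdowns was itself not called (0.43 ± 0.17, adjusted p = 0.90).

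In the combined comparison H2AZ1 lost its call without control replicate 2 (adjusted p = 0.093), control replicate 3 (0.131), NELFE replicate 1 (0.051), NELFB replicate 1 (0.056) or NELFB replicate 2 (0.054), and without a filter on low counts (0.165), with log2 fold changes between -0.46 and -0.58. In the NELFE comparison it gained a call without control replicate 1 (adjusted p = 0.020) or without NELFE replicate 3 (0.015), with DESeq2 (0.044) and without the filter on low counts (0.00019). The NELFB call was lost without NELFB replicate 1 or replicate 2, which leaves a lone library in that group. The log2 fold changes were then -0.88 and -0.83, beside -0.85 with all libraries. The genes that H2AZ1 followed most closely over the 8 libraries, among 10458 genes, were ASF1B (Pearson r = 0.995), RBBP4 (0.995), a histone-binding subunit of chromatin assembly factor 1 and other complexes, and ITGAE (0.994). These correlations rest on 8 points that share library and depth.

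The sum of 20 S-phase genes was 4459, 5134 and 5720 CPM in the controls, 3622, 3731 and 4878 CPM in the NELFE knockdown and 3413 and 3665 CPM in the NELFB knockdown. Control replicate 1 was the lowest control and NELFE replicate 3 the highest knockdown library in this sum, as in H2AZ1. Of these 20 genes 11 fell and none rose in the combined comparison, beside 12.7% of all genes that fell, with a median log2 fold change of -0.41. They were led by the replication licensing factor CDT1 (-0.80 ± 0.11, adjusted p = 0.00056), the helicase subunits MCM2 (-0.54 ± 0.09, adjusted p = 0.0020) and MCM6 (-0.62 ± 0.12, adjusted p = 0.0035) and the DNA methylation factor UHRF1 (-0.59 ± 0.10, adjusted p = 0.0021). The part of the cell cycle in the H2AZ1 result was not tested.

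H2AZ2 (ENSG00000105968, minus strand of chromosome 7, chr7:44826791-44848087), the paralog of H2AZ1, was not called. It was at 197, 238 and 234 CPM in the controls, at 235, 251 and 262 CPM in the NELFE knockdown and at 233 and 241 CPM in the NELFB knockdown. The groups overlapped, and only control replicate 1 lay apart, at the lower end. The combined log2 fold change was 0.13 ± 0.08 (adjusted p = 0.22), and 0.047 without control replicate 1. The division within the pair was therefore measured as the percentage of its TPM that came from H2AZ1. H2AZ1 made up 88.9%, 89.8% and 90.7% in the controls, 84.8%, 84.3% and 87.4% in the NELFE knockdown and 82.8% and 81.8% in the NELFB knockdown. Every knockdown library was below every control, with a mean difference of -5.58 percentage points (exact permutation test, two-sided, p = 0.036, the smallest that 5 against 3 libraries can give; 0.11 after adjustment over 3 pairs). The difference was -10.6 points as a share of counts and -4.37 points per countable window.

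H2A.Z is placed by the SRCAP and EP400 complexes and removed with the help of INO80 and ANP32E. Of 13 genes of this machinery 4 fell and none rose in the combined comparison, beside 12.7% of all genes that fell, with a list median of -0.10. In the NELFB knockdown alone DMAP1, a subunit of both complexes, rose (log2 fold change 0.28, adjusted p = 0.029). KAT5, the acetyltransferase of the EP400 complex, fell from 31.3 to 19.2 CPM (log2 fold change -0.70 ± 0.08, adjusted p = 0.00018), and YEATS4, the acetyl-lysine reader shared by both complexes, from 41.7 to 30.7 CPM (-0.44 ± 0.09, adjusted p = 0.0041). The ATPases RUVBL1 (-0.31 ± 0.08, adjusted p = 0.015) and RUVBL2 (-0.21 ± 0.07, adjusted p = 0.041) fell less. The catalytic subunits SRCAP and EP400 were not called (adjusted p = 0.97 and 0.84), nor were INO80 (0.40) and ANP32E (0.65).

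CENPA (ENSG00000115163, plus strand of chromosome 2, chr2:26764289-26801067), the centromeric H3, was at 38.2, 42.6 and 38.5 CPM in the controls. It was at 27.7, 36.1 and 34.7 CPM in the NELFE knockdown and at 27.5 and 33.2 CPM in the NELFB knockdown. All knockdown libraries were below all controls, and replicate 1 of each knockdown was lowest. CENPA was 1.25-fold lower in the combined comparison (log2 fold change -0.32 ± 0.10, adjusted p = 0.038). By edgeR with the filter on low counts, all libraries and no block for the replicate number, it was not called in the NELFE knockdown (-0.28 ± 0.12, adjusted p = 0.13) or in the NELFB knockdown (-0.39 ± 0.13, adjusted p = 0.063). In the NELFB knockdown it was called by DESeq2 (adjusted p = 0.039) and by edgeR without the filter on low counts (0.014) or without NELFE replicate 1 (0.045). The combined call was lost without control replicate 2 (adjusted p = 0.149), control replicate 3 (0.067), NELFE replicate 1 (0.082), NELFB replicate 1 (0.085) or NELFB replicate 2 (0.062), with log2 fold changes between -0.27 and -0.34. The value of the NELFE comparison was -0.17 without NELFE replicate 1 (adjusted p = 0.39).

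Of 6 genes that load or hold CENP-A, 1 fell and none rose in the combined comparison, a share near the 12.7% of all genes that fell, with a list median of -0.18. HJURP, the chaperone of CENP-A, fell from 117 to 95.6 CPM (-0.29 ± 0.10, adjusted p = 0.048). KNL1 (-0.19 ± 0.08, adjusted p = 0.11), CENPC (-0.17 ± 0.08, adjusted p = 0.14) and MIS18A (-0.17 ± 0.10, adjusted p = 0.24) were not called. CENPA and its loading factors are known to be expressed mainly in G2, and genes of G2 and mitosis were lower as well: 13 of 21 fell and none rose in the combined comparison, beside 12.7% of all genes that fell, with a median of -0.32, led by HMMR (-1.09 ± 0.06, adjusted p = 7e-06), AURKB (-0.71 ± 0.09, adjusted p = 0.00056), CDC20 (-0.75 ± 0.11, adjusted p = 0.00076) and CDK1 (-0.52 ± 0.10, adjusted p = 0.0030). Their sum was 6052, 6598 and 6383 CPM in the controls, 4594, 5247 and 5512 CPM in the NELFE knockdown and 4649 and 5303 CPM in the NELFB knockdown, again without overlap and lowest in replicate 1 of each knockdown. Their part in the CENPA result was not tested.

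The remaining variants were not called. MACROH2A1 (ENSG00000113648, chr5:135334381-135399914) was at 239, 277 and 278 CPM in the controls, at 292, 294 and 323 CPM in the NELFE knockdown and at 286 and 276 CPM in the NELFB knockdown. The NELFE libraries and NELFB replicate 1 lay above all controls and NELFB replicate 2 did not, with a combined log2 fold change of 0.15 ± 0.07 (adjusted p = 0.15), which was 0.08 without control replicate 1. MACROH2A2 (ENSG00000099284, chr10:70052544-70112282), its rarely transcribed paralog in these cells, had between 41 and 66 reads per library and a log2 fold change of 0.24 ± 0.17 (adjusted p = 0.34). MACROH2A1 made up between 98.9% and 99.3% of the TPM of the pair in every library, and the groups overlapped in this share (exact permutation test, two-sided, p = 0.68, also after adjustment). H1-10 (ENSG00000184897, chr3:129314771-129316286), the linker histone, was at 92.0, 65.2 and 62.4 CPM in the controls, between 66.9 and 77.4 CPM in the NELFE knockdown and at 65.8 and 78.2 CPM in the NELFB knockdown. Control replicate 1 was again apart, and the log2 fold change of -0.01 ± 0.12 (adjusted p = 0.96) turned to 0.19 without it.

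**Figure D3:**
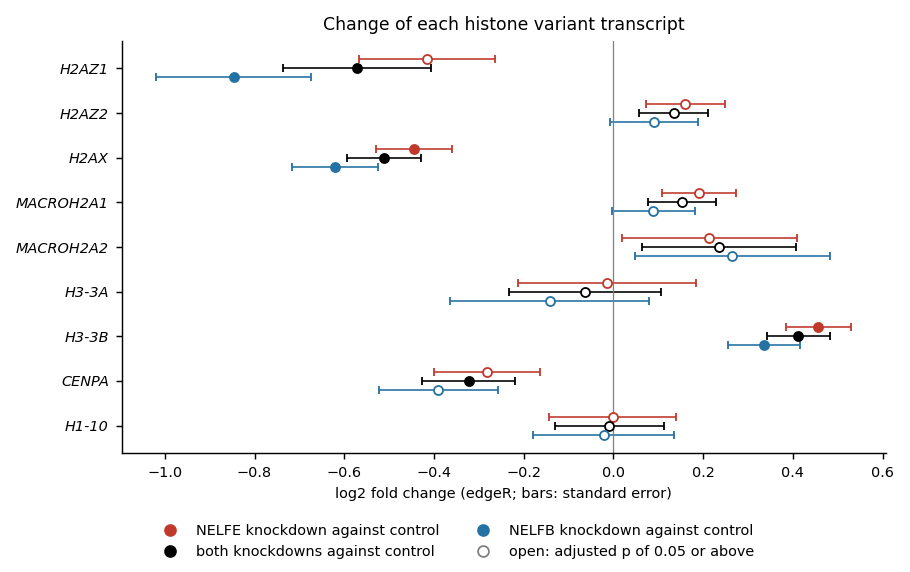
Log2 fold change (horizontal axis, edgeR) of each gene in the NELFE knockdown (red), both knockdowns (black) and the NELFB knockdown (blue) against the same 3 controls, with the standard error as bars and filled points where the adjusted p was under 0.05. H3-3B is filled on the right in all 3 comparisons and H2AX on the left, H2AZ1 is open in the NELFE knockdown, and CENPA is filled in the combined comparison only.

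The share of H3-3A within its pair was between 2.74% and 6.04% of the TPM in all libraries, with a mean of 4.48% ± 1.39 (SD, n = 3) in the controls and 3.24% ± 0.42 (n = 5) in the knockdowns. The groups overlapped (exact permutation test, two-sided, p = 0.11, and 0.16 after adjustment over 3 pairs). The mean difference was -1.24 percentage points with all libraries and -0.46 without control replicate 1. All reads of a gene, also those in other exons, were then divided by the countable windows of its canonical transcript in place of exon length. The share of H3-3A became 47.4% in the controls and 39.7% in the knockdowns, so that its contribution to H3.3 mRNA cannot be read from these counts.

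The direct comparison of the knockdowns called none of the 9 genes by edgeR, and 0.315% of all genes tested. DESeq2 called none either, and 1 of the 9, H2AZ1, had an unadjusted p under 0.05 by edgeR (0.029). The log2 differences, NELFE minus NELFB, ranged from -0.05 ± 0.22 for MACROH2A2 to 0.43 ± 0.17 for H2AZ1, with 0.18 ± 0.10 for H2AX and 0.12 ± 0.08 for H3-3B. Without the filter on low counts edgeR called H2AZ1 in this comparison (adjusted p = 0.0078). Without NELFE replicate 3 the log2 difference of H2AZ1 was 0.26 in place of 0.43. That of H2AX ranged from 0.056 to 0.32 when a library was left out.

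The start regions of the 4 called genes are shown because 3 of them fell and 1 rose, so a reader can compare them. The sequences come from RefSeq (GRCh38.p14), which had an entry for all 9 genes, and give the 190 bases upstream of the start on the strand of the gene. Capitals mark exact matches on either strand to 3 short motifs. The letters CCAAT form the box that is bound by the factor NF-Y at many promoters of the cell cycle. The letters TATAAA form the core element recognised by the general transcription factor TFIID. The letters TTTGAA form the CHR element, which is found at many promoters active in G2 and M phase. These motifs do not overlap each other in the sequences shown. The positions are chr4:99950276-99950465 for H2AZ1, chr11:119095466-119095655 for H2AX, chr2:26785866-26786055 for CENPA and chr17:75779780-75779969 for H3-3B, with CENPA on the plus strand and the others on the minus strand.
H2AZ1: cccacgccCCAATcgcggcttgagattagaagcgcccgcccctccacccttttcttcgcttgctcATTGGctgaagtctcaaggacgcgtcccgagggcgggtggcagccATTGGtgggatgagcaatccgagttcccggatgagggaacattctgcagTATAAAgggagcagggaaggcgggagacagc
H2AX: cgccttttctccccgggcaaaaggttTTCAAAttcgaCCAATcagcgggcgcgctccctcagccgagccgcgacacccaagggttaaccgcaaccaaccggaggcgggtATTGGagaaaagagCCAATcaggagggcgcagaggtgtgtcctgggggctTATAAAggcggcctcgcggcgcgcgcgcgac
CENPA: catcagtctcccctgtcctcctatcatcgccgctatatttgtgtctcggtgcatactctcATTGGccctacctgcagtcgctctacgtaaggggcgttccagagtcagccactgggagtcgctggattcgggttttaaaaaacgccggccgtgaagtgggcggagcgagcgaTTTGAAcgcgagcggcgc
H3-3B: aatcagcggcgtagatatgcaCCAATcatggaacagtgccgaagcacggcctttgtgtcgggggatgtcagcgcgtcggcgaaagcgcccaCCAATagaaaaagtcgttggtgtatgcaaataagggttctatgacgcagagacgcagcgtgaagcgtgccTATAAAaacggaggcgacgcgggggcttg
Over the whole window of 300 bases (250 upstream and 50 downstream of the start), CCAAT was found 3 times at H2AZ1, 4 times at H2AX, 2 times at CENPA and 4 times at H3-3B, while 34.6% of all 35116 windows of this length held at least 1. TATAAA, held by 11.5% of all windows, was found 31 bases upstream of the start at H2AZ1, H2AX and H1-10 and 29 bases upstream at H3-3B. TTTGAA, held by 15.2% of all windows, began 18 bases upstream of the start at CENPA, 164 bases upstream at H2AX and 4 bases downstream at H2AZ1. The genes that fell and the gene that rose thus shared CCAAT, and TATAAA was present at H2AZ1 and H2AX, which fell, and at H3-3B, which rose. CCAAT was not particular to the called genes. It was found 4 times at H2AZ2, up to 2 times at the entries of MACROH2A1 and up to 1 time at those of H3-3A. It was absent at MACROH2A2 and H1-10. These are matches of letters and no measure of binding.

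Beyond the dedicated machinery, histone chaperones that handle several histones were lower. Of 12 such genes 7 fell and none rose in the combined comparison, with a list median of -0.26, beside 12.7% of all genes that fell. Among the called genes, the chromatin assembly factor 1 subunits CHAF1B (log2 fold change -0.74 ± 0.12, adjusted p = 0.0017) and CHAF1A (-0.46 ± 0.10, adjusted p = 0.0061) had the largest values, followed by the nucleolar chaperone NPM1 (-0.36 ± 0.08, adjusted p = 0.0098) and the H3-H4 chaperone NASP (-0.31 ± 0.08, adjusted p = 0.013). The FACT subunits SSRP1 and SUPT16H and the histone-binding protein RBBP7 fell as well, by 0.29, 0.21 and 0.23 on the log2 scale. The importin IPO4, which carries histones into the nucleus (-0.41, adjusted p = 0.17), and RBBP4 (-0.17, adjusted p = 0.11) were not called.

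The 65 replication-dependent histone genes, whose normal mRNAs lack a poly(A) tail, are given beside the variants for scale. In the combined comparison 23 of them passed the filter on low counts, and all 23 rose, beside 13.3% of all genes tested that rose, with a median log2 fold change of 2.16. A gene that is near 0 in the controls can pass this filter only through its knockdown values, so the count and the median describe those 23 and not the list. Their sum over all 65 was 30.7, 39.9 and 40.9 CPM in the controls, between 136 and 216 CPM in the NELFE knockdown and 268 and 207 CPM in the NELFB knockdown. The 9 variants together held 1540, 1798 and 1863 CPM in the controls, 1654, 1728 and 1878 CPM in the NELFE knockdown and 1523 and 1549 CPM in the NELFB knockdown, which overlapped. H2BC12 (log2 fold change 2.33 ± 0.18, adjusted p = 4.6e-05) and H2AC6 (3.55 ± 0.30, adjusted p = 0.0001), among the tested genes with the smallest p, stand beside H3-3B, the variant that rose, with 0.41 ± 0.07. Among 8 other replication-independent histone genes, 5 had no read in any library, and only H2AJ was tested (0.44 ± 0.16, adjusted p = 0.059).

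**Figure D4:**
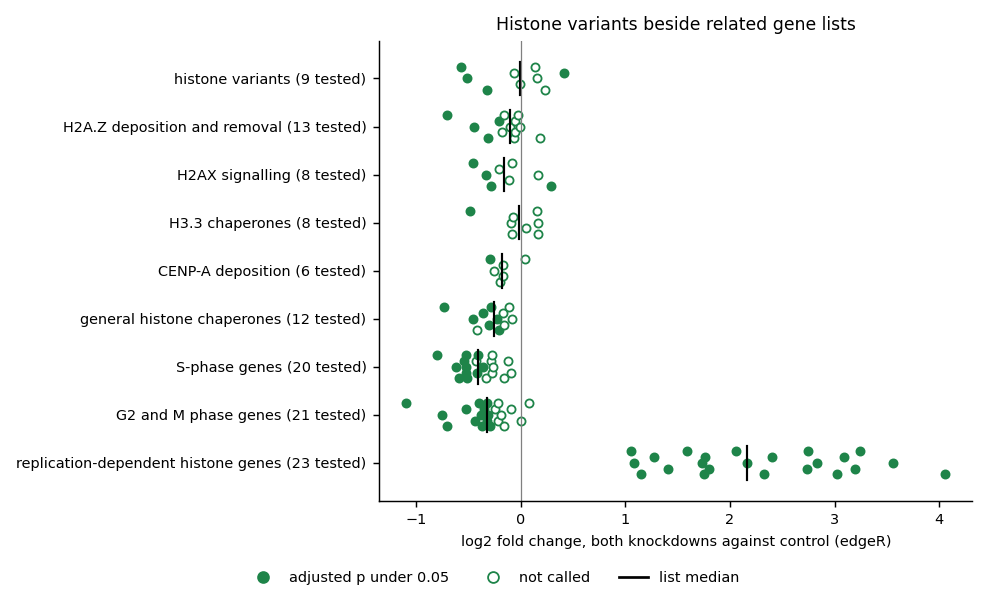
Log2 fold change of both knockdowns against control (horizontal axis, edgeR) for the tested genes of each list, filled where the adjusted p was under 0.05, with a black line at the list median. The 9 variants lie between -0.57 and 0.41 around a median of -0.01, most cell cycle and chaperone genes lie left of 0, and the 23 tested replication-dependent histone genes lie right of 1.

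Among 10458 genes whose log2 CPM averaged 3 or more over the 8 libraries, those most like H2AX were the noncoding OIP5-AS1 (r = 0.992), the Mediator subunit MED24 (0.991) and CAD (0.991), the enzyme that begins pyrimidine synthesis. Those most like H3-3B were the homeobox gene MEIS2 (0.991), TP53I3 (0.988), known as a target of p53, and the mRNA export factor NXF1 (0.983). With 8 libraries of 3 groups these values describe a shared pattern only.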

How the data were processed

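Polyadenylated RNA of 8 HAP1 libraries was analysed. The deposited values are raw counts: the authors aligned single-end reads to GRCh38 with STAR 2.5.4a after FastQC 0.11.6 and counted them per gene of Gencode v24, without strand information, normalisation or filters. Symbols, positions and exon lengths came from GENCODE v44, in which 97.4% of the genes that had reads, and 99.88% of all counts, were found. Genes were tested across all genes with edgeR 4.0.16 under R 4.3.3 (TMM, low counts removed by filterByExpr, robust quasi-likelihood test) and Benjamini-Hochberg adjustment, all 5 knockdown libraries against 3 controls, and each knockdown in a model of the 3 groups. An adjusted p under 0.05 was called. TPM used union exon lengths, and paralog shares were compared by exact permutation of the libraries (scipy). Windows of 65 bases were matched exactly to GRCh38. Correlations used log2 CPM with a prior count of 2. Members and gene lists were chosen with earlier results of these data known. Genes named from a list are the 4 with the smallest p in the combined comparison, plus other called genes of the deposition lists. The replication-dependent histone genes are an exception, with only H2BC12 and H2AC6 named. A gene of the CENP-A deposition list is not reported here and was left out of its counts. Further genes of a list were named after their values were seen, to complete its account. Alternatives were DESeq2 1.42.0, its size factors in edgeR, other filters, a block for the replicate number, omission of each library, and other length measures. Canonical length was added after the data were seen. The fit was tested on simulated data with 200 changed genes. Depth was 22037423 to 24444185 counts per library. Reads carry no molecular identifiers.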

Additional observations from a re-analysis of the deposited data

How the results depend on the processing

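H2AX and H3-3B kept direction and call in all 14 alternatives of the combined comparison and in all 13 of the NELFE comparison. The combined comparison called 2 to 4 of the 9 genes when a library was left out, the 2 being H2AX and H3-3B, and 4 with DESeq2. The NELFE comparison called 2 to 3 without a library, and the NELFB comparison 1 to 4, where omission of a NELFB library leaves that group with a lone sample that is assumed to vary like the other groups. Over all genes tested, calls without a library ranged from 2688 to 5125 in the combined (4255 with all), 990 to 3123 in the NELFE (2520), 603 to 4316 in the NELFB (3290) and 27 to 78 in the comparison of the knockdowns (53, with 90 by DESeq2, 161 without the filter and 195 with the replicate block). Of the 9 genes, the comparison of the knockdowns without a filter on low counts called H2AZ1 alone (adjusted p = 0.0078). The cause was not tested.

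Same-numbered libraries did not deviate together in every pair: the correlations of their deviations were 0.296, 0.05 and 0.481 between control and NELFE, -0.021 and -0.022 between control and NELFB, and 0.126 and 0.214 between NELFE and NELFB. Differently numbered control and NELFE libraries reached -0.402 and 0.252. With the replicate block the NELFE comparison called 5 of the 9 genes, and 4763 in place of 2520 genes in all. Added were CENPA, H2AZ1 and MACROH2A1, with adjusted p-values of 0.017, 0.0025 and 0.045. The NELFB comparison called 4 of 9 (CENPA added, adjusted p = 0.0090) and 4811 in place of 3290. The combined comparison called 5 of 9 (MACROH2A1 added, 0.038) and 5636 in place of 4255. For the share of H2AZ1, knockdown minus control was taken within each replicate number present in all groups and then averaged. This gave -5.91 percentage points, left out the control and NELFE libraries whose number the NELFB knockdown lacks, and was not tested. The libraries left out had the highest share of their groups, at 90.7% in the control and 87.4% in the NELFE knockdown.

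Directions turned only for values that were not called. Over the analyses that left out a library, the log2 fold change of H3-3A ranged from -0.22 to 0.16 in the combined, from -0.17 to 0.21 in the NELFE and from -0.40 to 0.082 in the NELFB comparison, and that of H1-10 from -0.11 to 0.19, from -0.10 to 0.19 and from -0.16 to 0.17, with the highest value of each without control replicate 1. Between the knockdowns, H3-3A ranged from -0.081 to 0.39, H1-10 from -0.092 to 0.16, MACROH2A2 from -0.21 to 0.029 and CENPA from -0.012 to 0.26. H1-10 in the NELFE comparison also turned with at least 10 counts in every library (0.0073) and with the replicate block (0.0062). The difference in the share of MACROH2A1 ranged from -0.102 to 0.000397 percentage points. Depth limits MACROH2A2 (41 to 66 reads) and unique sequence limits H3-3A.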
